A study of Mus musculus with 3 samples.

Results

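The genes described here are the cytochrome P450 genes of families 1 to 3, the families that handle most drugs, in normal mouse liver. They were chosen as the protein-coding genes whose symbol is Cyp1, Cyp2 or Cyp3 followed by a letter, and there were 61 of them among 21951 protein-coding genes annotated on GRCm38. RNA sequencing had been done on 3 liver libraries labelled as wild-type, healthy, male C57BL/6 mice, here called libraries 1, 2 and 3, which form 1 group. No contrast between conditions was therefore possible, and what follows gives levels, their spread between libraries and the structure of the transcripts. The series also concerns liver cancer, whose samples were not analysed here. The labels do not say whether the libraries came from separate animals, so the spread may be technical. An age or a treatment was not given in the labels used here.

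Cytochrome P450 enzymes are haem proteins that use oxygen and electrons from a reductase to hydroxylate or otherwise oxidise small lipophilic molecules. In hepatocytes those of families 1 to 3 sit in the endoplasmic reticulum and act on drugs, environmental chemicals, steroids and fatty acids, and several are induced by their own substrates through the receptors AHR, CAR and PXR. In the mouse these families have expanded into clusters of near-identical neighbouring genes, some of them read mainly in one sex and some mainly in hepatocytes at one end of the liver lobule.

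Each table listed the starts, ends and splicing choices of assembled transcripts as events, each with an FPKM, a fragment level scaled to transcript length and library size. Levels of different genes can therefore be compared per length. By the gene identifier in the tables, 220, 198 and 187 of 71716, 74243 and 74236 events belonged to 34 of the 61 genes. That identifier was found to be 1 per assembled locus, whatever number of genes the locus held, so the events were also placed by position. By position 44 of the 61 genes had a value, against 12052 of all 21951 protein-coding genes. Of the 61 genes, 40 had a value in all 3 libraries. Of these 44 genes, 10 were seen by position only. Cyp2e1 was listed under the neighbouring gene Nlrp6. Cyp3a16, Cyp3a41a, Cyp3a41b and Cyp3a44 were listed under Cyp3a11, Cyp2c67 and Cyp2c68 under Cyp2c69, and Cyp2c37 under Cyp2c50. Cyp2d9 and Cyp2d12 also carried the identifier of another gene. The gene-level FPKM used below is the largest of the summed first exons, the summed last exons and the largest internal event of a gene.

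The tables hold no read counts, so depth is unknown and no counting interval was possible. All 6 hepatocyte markers were listed, with albumin between 25367 and 30592 FPKM. Kupffer cell markers summed to between 85.1 and 135 FPKM and bile duct markers to between 2.16 and 3.69 FPKM, while none of the 3 lung club cell markers was listed. The sex chromosome genes went against the label male. Xist, the RNA of the inactive X chromosome, stood at 65.7, 53.9 and 46.4 FPKM, and no event was listed for any of 4 Y chromosome genes (Ddx3y, Eif2s3y, Kdm5d, Uty). Of the 9 P450 genes known as female-biased, some were abundant in all 3 libraries, such as Cyp2a4. Others were low, such as Cyp3a16, as given below. Mup20, known as male-biased, was at 252, 53.7 and 75.9 FPKM. Since the sex chromosome values go against the label in each library, no value without the libraries concerned could be given. Male stands here only as their label.

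At a mean of 1 FPKM or more stood 41 of the 61 genes, against 42.1% of the 21951 protein-coding genes. Of these, 33 reached 10 FPKM and 21 reached 100 FPKM on average. The median log2(FPKM + 1) of the 44 genes with a value was 6.24, against 2.12 for all 13076 genes with a value. Together they summed to 7353, 8927 and 9065 FPKM in libraries 1, 2 and 3, or 8448 ± 951 (SD, n = 3). That was 2.25, 2.74 and 2.88% of all summed FPKM, with library 1 the lowest. The 5 highest genes, Cyp2e1, Cyp3a11, Cyp2d26, Cyp2a4 and Cyp2c29, held 50.6, 50.5 and 51.1% of this sum, a share nearly equal in the 3 libraries. In bulk tissue, fewer cells of a type and less RNA per cell cannot be told apart. A gene not listed cannot be called silent, since the tables list events and hold no read counts. A single annotated transcript was held by 6 of the 17 unlisted genes and by 23 of all 61.

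By subfamily, Cyp2e (1 gene) and Cyp2c (15 genes, 13 with a value) were the largest and did not differ beyond their spread, at 2231 ± 375 and 2171 ± 271 FPKM. They held 26.3 and 25.7% of the summed P450 level. Cyp3a followed at 1399 ± 152 FPKM with 8 of 9 genes listed, and Cyp2a at 1166 ± 114 FPKM with all 4. Cyp2d stood at 676 ± 77.6 FPKM with 6 of 8 genes. Below them were Cyp2f at 264 ± 39.1 FPKM, Cyp2j at 195 ± 30.8 FPKM, Cyp2b at 185 ± 89.3 FPKM and Cyp1a at 150 ± 11.4 FPKM. Cyp2b had the widest relative spread of these 9 subfamilies, with sums of 97.8, 182 and 276 FPKM.

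**Figure D1:**
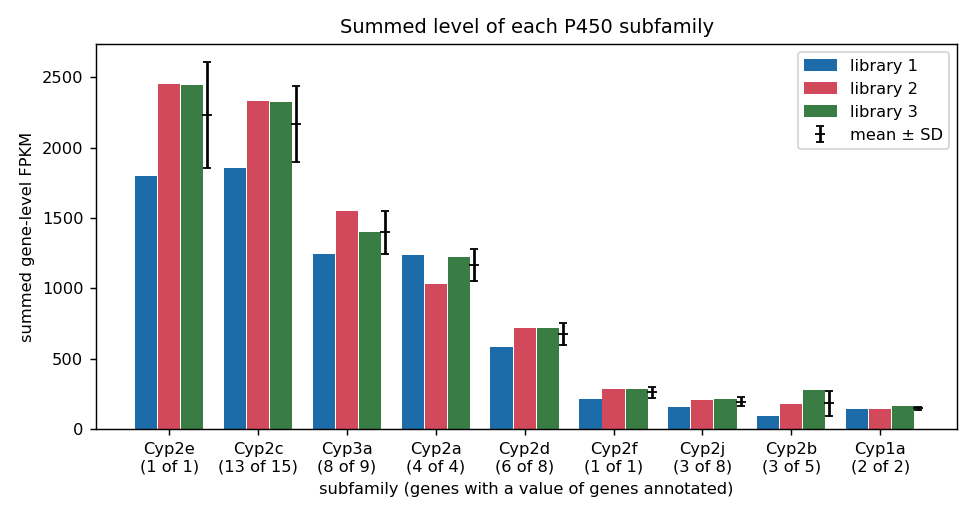
Summed gene-level FPKM (vertical axis) of the 9 P450 subfamilies that averaged 100 FPKM or more, with 1 bar per library and the mean ± SD of the 3 libraries beside the bars. Cyp2e and Cyp2c reach the same height, Cyp1a is almost level between libraries, and Cyp2b goes from 97.8 to 276 FPKM.

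Promoter sequences were looked up in RefSeq (GRCm38.p6), which held 53 of the 61 genes. For the 38 of them with a listed first exon, that exon began within 10 bases of the RefSeq start in 21 and within 60 bases in 32. Where RefSeq gave several starts, the one nearest the highest listed first exon was used, so this closeness is partly set by that choice. The largest distance was 25747 bases, for Cyp2j9. The 120 bases before the RefSeq start are printed for 12 genes, chosen after their values were seen, that show a TATA box, the letters of a liver factor, or promoters shared by close copies. Capitals mark the TATA box letters TATAAA and the letters CAAAGTCCA, known from sites of the liver factor HNF4A, searched on either strand. The first 4 sequences belong to genes above 100 FPKM with a TATA box.
Cyp2e1 (chr7:140763699-140763818, plus strand): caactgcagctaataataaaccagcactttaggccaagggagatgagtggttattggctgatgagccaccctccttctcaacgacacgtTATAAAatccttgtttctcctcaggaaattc
Cyp1a2 (chr9:57683656-57683775, minus strand): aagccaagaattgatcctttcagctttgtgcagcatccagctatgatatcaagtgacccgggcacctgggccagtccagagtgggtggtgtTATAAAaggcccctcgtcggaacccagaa
Cyp2a4 (chr7:26307072-26307191, plus strand): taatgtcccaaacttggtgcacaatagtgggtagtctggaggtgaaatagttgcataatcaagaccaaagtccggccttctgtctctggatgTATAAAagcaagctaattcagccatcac
Cyp2a5 (chr7:26835219-26835338, plus strand): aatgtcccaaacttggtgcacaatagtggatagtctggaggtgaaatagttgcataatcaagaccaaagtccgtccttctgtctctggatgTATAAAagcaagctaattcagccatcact
In these 4 genes the TATA box began between 28 and 31 bases before the RefSeq start. The first exon listed in these data began further upstream than the TATA box in Cyp2e1, Cyp1a2 and Cyp2a5, and overlapped its end in Cyp2a4, so the box lies wholly or partly inside the listed exon. The next 6 show the HNF4 letters in Cyp3a and Cyp2c genes, with Cyp3a44 as a close copy without a match. In Cyp3a11 the first exon listed in these data began 110 bases upstream of the RefSeq start, so its HNF4 letters lie inside that exon.
Cyp3a11 (chr5:145879855-145879974, minus strand): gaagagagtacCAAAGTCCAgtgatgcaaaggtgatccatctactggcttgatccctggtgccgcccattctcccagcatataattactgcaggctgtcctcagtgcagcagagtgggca
Cyp3a41a (chr5:145720137-145720256, minus strand): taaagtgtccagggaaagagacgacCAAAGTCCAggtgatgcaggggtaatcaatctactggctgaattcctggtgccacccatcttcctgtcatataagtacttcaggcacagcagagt
Cyp3a41b (chr5:145584731-145584850, minus strand): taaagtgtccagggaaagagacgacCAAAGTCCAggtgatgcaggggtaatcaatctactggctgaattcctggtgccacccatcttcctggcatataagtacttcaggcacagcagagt
Cyp3a44 (chr5:145805875-145805994, minus strand): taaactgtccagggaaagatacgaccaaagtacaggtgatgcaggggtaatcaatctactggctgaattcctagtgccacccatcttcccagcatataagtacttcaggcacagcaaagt
Cyp2c40 (chr19:39812815-39812934, minus strand): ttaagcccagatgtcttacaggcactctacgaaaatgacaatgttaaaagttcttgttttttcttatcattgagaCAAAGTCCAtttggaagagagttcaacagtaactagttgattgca
Cyp2c69 (chr19:39886770-39886889, minus strand): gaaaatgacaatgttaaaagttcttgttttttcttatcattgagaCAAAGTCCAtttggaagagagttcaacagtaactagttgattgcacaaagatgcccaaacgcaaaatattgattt
The last pair are Cyp2b copies whose levels are compared below.
Cyp2b9 (chr7:26173289-26173408, plus strand): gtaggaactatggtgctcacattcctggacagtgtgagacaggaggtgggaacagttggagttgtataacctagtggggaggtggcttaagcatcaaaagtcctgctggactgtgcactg
Cyp2b13 (chr7:26061375-26061494, plus strand): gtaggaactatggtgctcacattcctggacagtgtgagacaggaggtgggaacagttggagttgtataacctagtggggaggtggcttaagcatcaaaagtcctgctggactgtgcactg

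The letters CAAAGTCCA were found in 10 of the 53 promoters (18.9%), within the 250 bases before and 50 after the start, against 0.479% of all 32544 RefSeq promoters. The 10 were Cyp3a11, Cyp3a16, Cyp3a41a, Cyp3a41b, Cyp2c40, Cyp2c65, Cyp2c67, Cyp2c68, Cyp2c69 and Cyp2c70, 8 of them among the 30 promoters of genes at 10 FPKM or more. These are copies within 2 gene clusters and not independent of each other. The TATA box letters, on either strand of the same window, were in 28 of 53 promoters (52.8%) against 13.6% of all. On the strand of the gene and within 120 bases before the start they were in 12 of the 53. The forkhead letters TGTTTAC were in 9 (17.0%) against 3.66%, and the nuclear receptor letters AGGTCA in 17 (32.1%) against 16.2%. The CCAAT box was in 23 (43.4%) against 37.4%. GCGTG, the core letters bound by AHR, were in 10 (18.9%) against 32.6%. None of these motifs holds the letters of another. A match describes letters in the window and is not a measured binding site.

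Family 1, the classical targets of AHR, was represented by 1 abundant gene. Cyp1a2 (chr9:57676937-57683703, minus strand), which oxidises caffeine and aromatic amines, was at 141, 147 and 163 FPKM, or 150.1 ± 11.5. The libraries lay close together. Its single first exon and its single last exon had the same value in each of them, to every listed digit, so these are not separate measurements. Cyp1a1, an AHR-induced gene, was listed only in library 2, at 0.34 FPKM, and Cyp1b1 was not listed. The listed ends of Cyp1a1, chr9:57687928-57688093 and chr9:57695088-57695280, both lie upstream of its RefSeq start at 57697613. AHR itself was at 5.68 ± 0.76 FPKM and its partner Arnt at 4.19, 5.11 and 7.20 FPKM in libraries 1, 2 and 3.

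Cyp2e1 (chr7:140763739-140774987, plus strand), which oxidises ethanol, acetone and paracetamol, was the highest of the P450 genes and ranked 14 among all genes with a value. It was at 1797, 2451 and 2444 FPKM, or 2231 ± 375. Library 1 was below the other two, which nearly coincided. A second first exon, at chr7:140764481-140764959, stood at 0.95, 215 and 2.84 FPKM. It made up 8.76% of the Cyp2e1 first exons in library 2 and at most 0.12% in the others.

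The Cyp2c genes, which encode epoxygenases of arachidonic acid and drug hydroxylases, spread over 13 listed members. Cyp2c29, a CAR-induced gene, was at 301, 369 and 459 FPKM and Cyp2c37 at 315, 296 and 436 FPKM, both highest in library 3. Cyp2c50 was at 240.0, 208 and 255 FPKM and Cyp2c54 at 92.8, 71.5 and 74.8 FPKM. These 4 are known as pericentral genes, read around the central vein. Cyp2c70, the enzyme that makes muricholic acids in rodent bile, was at 175, 217 and 225 FPKM. Cyp2c23 was at 180.4, 195 and 217 FPKM and Cyp2c68 at 177, 178 and 197 FPKM. For these 3 genes the highest library stayed close to the lowest, with a ratio of 1.28 on the FPKM + 1 scale for Cyp2c70.

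Of further close relatives in the same cluster, Cyp2c69 and Cyp2c40 were less even. Cyp2c69 was at 125, 411 and 196 FPKM, with library 2 far above the other two. Cyp2c40 was at 151, 301 and 159 FPKM, again highest in library 2. Cyp2c67 was at 53.5, 48.7 and 63.7 FPKM, without that excess. Of the 100-base windows in their transcripts, 35.4% for Cyp2c69, 34.4% for Cyp2c40, 23.7% for Cyp2c67 and 19.8% for Cyp2c68 were identical in another gene, so reads could be split between them and their separate values are uncertain. Cyp2c38, a lower member, was at 44.2, 31.8 and 38.4 FPKM. Cyp2c39 and the inducible Cyp2c55 were the lowest listed Cyp2c genes, at 2.54 ± 0.777 FPKM and 1.09 ± 0.631 FPKM; Cyp2c55 was lowest in library 2.

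In the Cyp3a cluster, Cyp3a11 (chr5:145854426-145879964, minus strand), the main PXR target and the counterpart of human CYP3A4, was at 773, 746 and 894 FPKM, or 805 ± 79.0. Cyp3a25 followed at 312, 198 and 309 FPKM with library 2 lowest, and Cyp3a13 was at 48.4, 44.8 and 63.4 FPKM. Cyp3a59 was at 19.4, 9.76 and 22.7 FPKM, also lowest in library 2. The 4 genes known as female-biased did the opposite. Cyp3a41a was at 63.1, 456 and 101 FPKM, Cyp3a41b at 29.7, 82.3 and 8.01 FPKM and Cyp3a44 at 0.430, 4.08 and 1.45 FPKM. Cyp3a16, a gene known from fetal and young liver, was at 0, 9.35 and 0.549 FPKM. Library 2 was the highest for all 4. The value of Cyp3a41a depends on how it is formed: with its last exon counted it was 496 ± 73.5 FPKM in place of 207 ± 217, and the gene was not over 2-fold apart. Cyp3a41a and Cyp3a41b share 90.8 and 88.2% of their 100-base windows with another gene, and their promoters were identical at 249 of 250 bases, so how the reads were split between these copies is uncertain.

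The Cyp2a genes encode coumarin and steroid hydroxylases. Cyp2a4, the female-biased testosterone 15-alpha-hydroxylase, was at 411, 431 and 360.1 FPKM and Cyp2a12 at 337, 361 and 327 FPKM, both nearly level between libraries. Cyp2a5, the coumarin 7-hydroxylase, was at 404, 217 and 469 FPKM and Cyp2a22 at 84.8, 25.5 and 70.4 FPKM. In both of these library 2 was the lowest, 2.15-fold and 3.23-fold below the highest on the FPKM + 1 scale. Cyp2a4 and Cyp2a5 shared 11.2 and 12.1% of their windows with another gene, and their promoters were identical at 245 of 250 bases.

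The Cyp2d genes, relatives of the human debrisoquine hydroxylase, were led by Cyp2d26 (chr15:82790101-82794294, minus strand) at 437, 514 and 477 FPKM, or 476 ± 38.5. Cyp2d10 was at 63.8, 139.5 and 164 FPKM, with library 1 below the others. It shared 11.7% of its windows with another gene, so its separate value is uncertain. Cyp2d22 was at 47.8, 42.6 and 52.3 FPKM and Cyp2d40 at 21.8, 19.8 and 20.1 FPKM, both level. Cyp2d9, the male-biased testosterone 16-alpha-hydroxylase, was at 15.0, 3.04 and 7.88 FPKM, lowest in library 2.

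The Cyp2b genes are the classical targets of CAR. Cyp2b10, the phenobarbital-induced gene, was low at 11.6, 4.10 and 16.0 FPKM. The female-biased Cyp2b13 was at 37.4, 115 and 163 FPKM and Cyp2b9 at 48.8, 63.0 and 97.3 FPKM, both in the same order of libraries. Their promoters, printed above, were identical at 248 of 250 bases. Cyp2b19 and Cyp2b23 were not listed.

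Of the remaining subfamilies, Cyp2f2, the periportal and lung enzyme that activates naphthalene, was at 218, 288 and 284 FPKM. None of the 3 lung club cell markers was listed beside it. Cyp2j5, an arachidonic acid epoxygenase of liver and kidney, was at 147, 198 and 202 FPKM, while Cyp2j6 was at 10.1, 12.0 and 11.9 FPKM and Cyp2j9 at 2.69, 1.09 and 0 FPKM. Of the 3 kidney tubule markers only Lrp2 was listed, at 0.43 FPKM in library 2. Of the 3 intestine markers Vil1 was listed in library 1 only, at 0.36 FPKM, Cdx1 was not listed, and Fabp2, a fatty acid binding protein, was at 57.4, 41.5 and 37.1 FPKM; the part of other tissues in these values was not tested. Cyp2g1, a gene of olfactory mucosa, was at 6.23, 6.40 and 5.91 FPKM and the vitamin D 25-hydroxylase Cyp2r1 at 5.51, 4.47 and 3.29 FPKM. Cyp2d12 and Cyp2u1 were listed below 1 FPKM. The genes with no value, beside Cyp1b1, Cyp2b19 and Cyp2b23, were Cyp2ab1, Cyp2c65, Cyp2c66, Cyp2d11, Cyp2d34, Cyp2j7, Cyp2j8, Cyp2j11, Cyp2j12, Cyp2j13, Cyp2s1, Cyp2t4, Cyp2w1 and Cyp3a57. In a list of 8 P450 genes known mainly from other organs, 4 had a value, against 12052 of 21951 protein-coding genes. Among the 4 was Cyp2f2, which is also known as periportal.

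**Figure D2:**
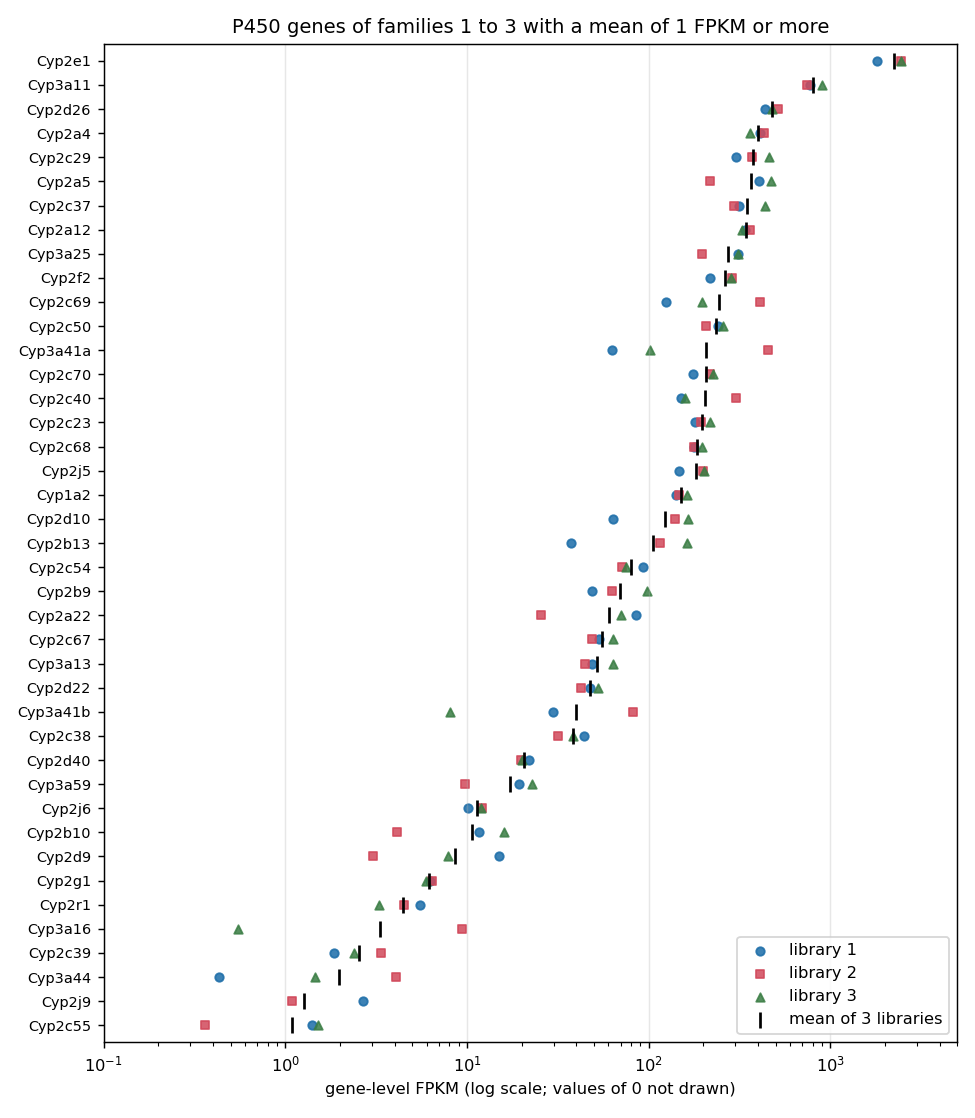
Gene-level FPKM (horizontal axis, log scale) of the 41 P450 genes averaging 1 FPKM or more, with 1 symbol per library and a bar at the mean. Most genes keep their place in all 3 libraries, while Cyp3a41a (by its first exons), Cyp3a41b and Cyp3a16 span 7.13-fold, 9.24-fold and 10.3-fold on the FPKM + 1 scale.

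The spread between libraries was set beside that of all genes. Of the 41 P450 genes at 1 FPKM or more, 13 differed over 2-fold between the highest and the lowest library on the FPKM + 1 scale, against 11.2% of 9577 genes. At 10 FPKM or more it was 9 of 33, against 9.9% of 3264 genes. The median fold was 1.47 for the P450 genes and 1.33 for all genes, and the median coefficient of variation was 21.1% against 18.1%. Without library 2, 4 genes differed over 2-fold: Cyp2b13, Cyp2d10, Cyp2j9 and Cyp3a41b. Without library 1 or without library 3 the count was 10. The genes share clusters and sequence, so the 13 are not independent: 5 of them are among the 9 expressed genes with over 10% of their windows shared with another gene, and 8 among the 32 with less.

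Of the 9 genes known as female-biased, 6 were over 2-fold apart, and of the other 32 genes at 1 FPKM or more 7 were. The female-biased genes summed to 867, 1872 and 1086 FPKM. Library 2 was highest for 7 of the 9, all but Cyp2b9 and Cyp2b13, and library 1 was lowest for 7. Of all genes, 32.9% were highest in library 2 and 37.6% lowest in library 1. Cyp2d9 ran the other way, with library 1 highest. Female-biased genes outside these families gave sums in the same order of libraries. The 5 of them summed to 445, 1026 and 664 FPKM, among them A1bg at 160.4, 539.7 and 331 FPKM and the sulfotransferase Sult3a1 at 28.6, 135 and 37.0 FPKM. Hao2 was an exception, at 9.53, 3.24 and 13.3 FPKM. The 6 male-biased genes summed to 276, 68.3 and 91.8 FPKM, most of it Mup20 at 252, 53.7 and 75.9 FPKM, with Cyp4a12a at 15.3, 0.796 and 7.28 FPKM. Cyp7b1, at 5.72, 9.99 and 7.41 FPKM, and Elovl3, at 1.32, 3.20 and 1.26 FPKM, were instead highest in library 2. Slco1a1 was at 0.94, 0.58 and 0 FPKM and Hsd3b5 was not listed. Xist, at 65.7, 53.9 and 46.4 FPKM, did not follow this order. The part that sex or another trait of the animals had in these values was not tested.

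**Figure D3:**
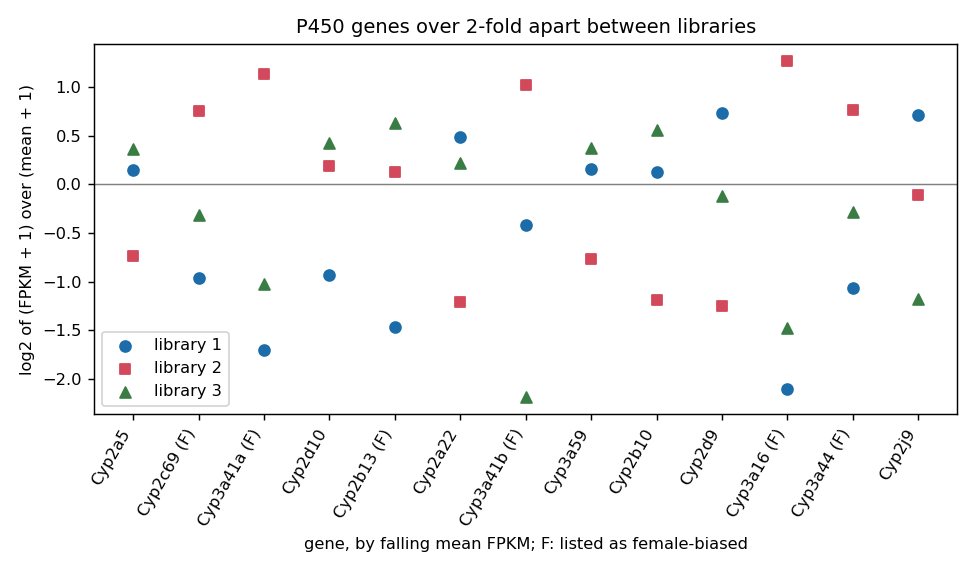
Log2 of FPKM + 1 over the mean + 1 (vertical axis) in each library for the 13 P450 genes over 2-fold apart, ordered by mean FPKM, with F for genes known as female-biased. Library 2 is the highest for 5 of the 6 marked genes, all but Cyp2b13, and the lowest for Cyp2a5, Cyp2a22, Cyp3a59, Cyp2b10 and Cyp2d9.

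The 8 electron and haem partners all had a value. The reductase Por, which passes electrons to every microsomal P450, was at 92.5 ± 13.0 FPKM. Cytochrome b5 (Cyb5a) was at 561 ± 74.5 FPKM, its reductase Cyb5r3 at 114 ± 18.6 FPKM and the haem-binding Pgrmc1 at 563 ± 16.2 FPKM. Por was thus lower per length than 21 P450 genes were on average. Alas1, which starts haem synthesis, was at 97.3, 42.6 and 90.0 FPKM, lowest in library 2. The epoxide hydrolase Ephx1 was at 85.7, 196 and 204 FPKM, lowest in library 1.

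Among 15 regulators, 12 had a value, each at 1 FPKM or more. CAR (Nr1i3) was the highest at 143 ± 24.0 FPKM, followed by Hnf4a at 81.0 ± 19.5 FPKM, Rxra, the partner of CAR and PXR, at 63.3 ± 10.7 FPKM and the bile acid receptor Nr1h4 at 49.8 ± 4.51 FPKM. PXR (Nr1i2) stood at 23.3 ± 3.45 FPKM. Ppara, the fatty acid receptor, was at 13.6, 29.7 and 30.1 FPKM, lowest in library 1. Cebpa, Cebpb and Foxa3 were not listed, and cannot be called silent for that reason.

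By place in the lobule, the 8 pericentral P450 genes all had a value and summed to 4064, 4506 and 5195 FPKM. Library 3 was the highest for 6 of the 8, namely Cyp1a2, Cyp2a5, Cyp2c29, Cyp2c37, Cyp2c50 and Cyp3a11. It was also the highest for 19 of the 41 P450 genes at 1 FPKM or more, and for 31.5% of all genes at that level. Cyp2e1 was at nearly the same level in libraries 2 and 3, and Cyp2c54 was highest in library 1. The 7 other pericentral genes, such as the glutamine synthetase Glul at 313, 414 and 328 FPKM, summed to 1134, 1511 and 1384 FPKM. The periportal P450 Cyp2f2 stood beside 8 other periportal genes summing to 2362, 2069 and 2803 FPKM. For comparison, 13 of 14 P450 genes of other families had a value. They summed to 1026, 2026 and 1501 FPKM, and the fatty acid hydroxylases Cyp4a10 and Cyp4a14 were the highest.

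First and last exons were compared for genes at 10 FPKM or more. In genes such as Cyp1a2 both ends carried the same FPKM to every listed digit in each library. The ends of a gene are thus not independent measurements, and their equality is no check of a level. All 33 P450 genes had a first exon and 25 also had a last exon, so 8 had none, and of all genes at that level 13.0% had none. In 3 of the 25 the sums differed over 1.5 times, against 21.4% of 2762 genes, and in 16 of the 25 (64%) they lay within 1% of each other, against 49.4% of all. The 3 were Cyp3a11, Cyp2c37 and Cyp3a41a, each in an assembled locus with other genes. Such loci held 11 of the 33 P450 genes, against 7.57% of all genes at that level, and 7 of the 11 had no last exon. Of the 22 genes alone in their locus, only Cyp2a5 lacked one.

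**Figure D4:**
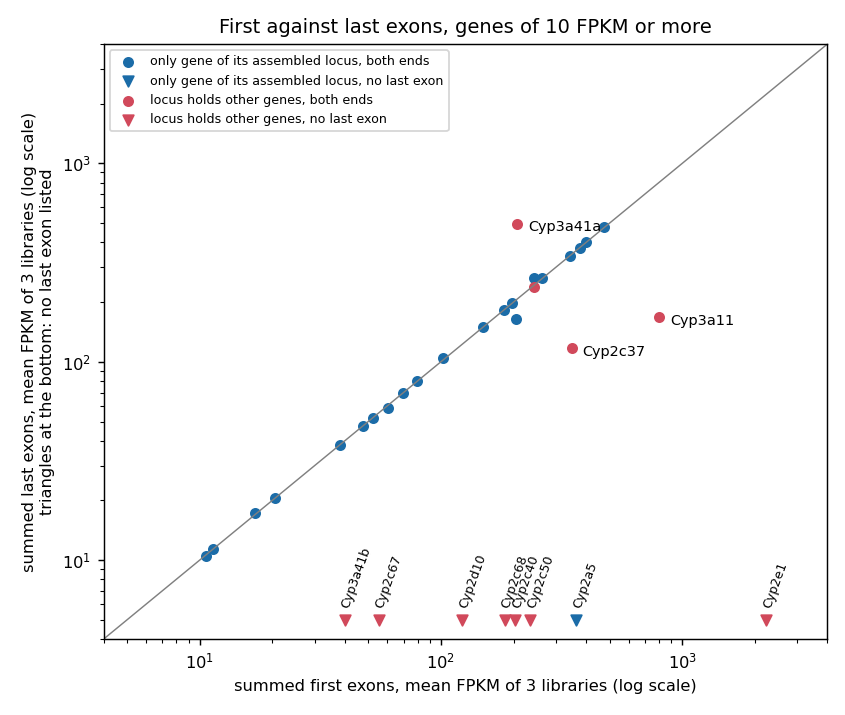
Summed last exons against summed first exons (mean FPKM of 3 libraries, both axes log scale) for the 33 P450 genes at 10 FPKM or more, with triangles for the 8 genes that had no last exon. Genes alone in their locus lie on or near the line of equality, while Cyp3a11 and Cyp2c37 fall below it and Cyp3a41a above. First and last exon values of a gene are not independent measurements.

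In the Cyp3a locus, the last exon of Cyp3a11 was at 302, 21.5 and 179 FPKM, between 2.88% of its first exons in library 2 and 39.1% in library 1. A last exon in the neighbour Cyp3a41a, at chr5:145694049-145694542, was at 471, 579 and 438 FPKM. The 2 last exons together came to 773, 600.4 and 617 FPKM, beside 773, 746 and 894 FPKM for the first exons of Cyp3a11. They were thus equal to the Cyp3a11 first exons in library 1 and lower in libraries 2 and 3. As first and last exons are not independent measurements, this equality is no check of either. All first exons of the locus, which held 5 genes, summed to 866, 1298 and 1006 FPKM, above these last exons in every library. In the Cyp2c37 locus the gene's own last exon was at 16.4, 21.7 and 313 FPKM. Library 1 also listed a last exon of 299 FPKM inside Cyp2c54 on the strand opposite to that gene. With it the last exons equalled the first exons of Cyp2c37 in that library, at 315 FPKM. In libraries 2 and 3 the last exons, at 21.7 and 313 FPKM, stayed below Cyp2c37 first exons of 296 and 436 FPKM. The first exon of Cyp2c50 in the same locus, at 240.0, 208 and 255 FPKM, is not counted in this comparison. Whether these are transcripts running through several genes or joins made by the assembly was not tested.

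Other last exons differed between libraries within a gene. Cyp2b9 ended at its annotated last exon with 28.7, 48.7 and 1.99 FPKM. A last exon beyond the annotated end, at chr7:26223485-26226328 and placed by its identifier, had 20.1, 14.4 and 95.4 FPKM, so the annotated end led in libraries 1 and 2 and the distal end in library 3. Cyp2c70 had an end at chr19:40164393-40164493 with 101, 156 and 78.6 FPKM and another at chr19:40165468-40165501 with 0.11, 0.12 and 88.4 FPKM. The end at the annotated gene end, chr19:40153341-40153757, had 10.6, 61.2 and 0 FPKM. Cyp2f2 ended at 1 last exon for 97.3, 97.3 and 98.8% of its last exon level.

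Inside the genes, 137, 117 and 110 internal events were placed. Skipping could be measured for 18 cassette exons of 11 genes, requiring a mean of 10 FPKM over both forms together. Only exons with both an included and a skipped form listed entered, so these shares do not describe the exons of these genes in general. The median share skipped was 22.4%, with 7 exons under 5% and 9 at 20% or more. These 9 all lay in Cyp2b9, Cyp2c38, Cyp3a25 and Cyp3a59, and no share over all genes was formed. They are not all separate exons. In Cyp3a25, chr5:145982484-145982617 and chr5:145982484-145982635 overlap and have the same skipped values. In Cyp2b9, chr7:26210103-26210636 lies inside the annotated last exon, so its skipping cannot be told from the choice of end. The 177-base exons of Cyp2e1, Cyp2f2 and Cyp2c50 were included almost always, with mean skipped shares of 0.00017, 0.68 and 0.073%. In Cyp3a25 an 89-base exon was skipped in 21.2, 14.1 and 50.7% and a 152-base exon in 78.7, 53.0 and 49.3%. In Cyp2c38 a 41-base exon was skipped in 42.5, 76.7 and 74.6%. These shares moved in different directions between libraries. Under the same rules, retention could be measured for 8 introns of 5 genes, with a median of 7.90%. In Cyp2a22 the intron between the exon ends at chr7:26936485-26937707 was retained at 30.2, 13.6 and 25.4 FPKM, beside 49.2, 11.9 and 45.0 FPKM spliced. Its region overlaps a Cyp2a pseudogene on the other strand, and the labels used here do not say that the libraries kept strand, without which reads of the 2 cannot be told apart.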

How the data were processed

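The 3 deposited tables list transcript events, 1 table per library, with an FPKM that the authors computed, per the file headers. The build mm9 and the tools DESeq2, HTSeq 0.6.1, HISAT2 2.0.1 and cutadapt 1.9.1 are named, per the submitters' processing notes, with no roles. Which tool made the tables was not given in the sources used here. Per the labels' protocols, the libraries were made from total RNA by poly(A) selection or rRNA removal. Positions were read as GRCm38, since 82.0, 82.2 and 82.7% of first exons had exactly the position of a GENCODE M21 first exon.

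Identical rows (1519, 1440 and 1485) were removed. Events were placed by exact exon, then splice site, then overlap on the same strand, then identifier if the locus held no other gene; 2.50, 2.46 and 2.08% of ends were not placed. Last exons counted only in loci with 1 gene or for genes with no listed first exon, and internal events only in loci with 1 gene. This definition was chosen after values were seen. Folds use FPKM + 1. Named were all members averaging 10 FPKM or more, those over 2-fold apart averaging 1 FPKM or more, family 1, and the P450 lists; other members were given by values or counts, and non-members only from the regulator, partner, sex and lobule lists, beside markers. Cyp4a10 and Cyp4a14 and the genes whose end or splice values are given were chosen after their values were seen. Members and lists were chosen with earlier results of these data known. Transcripts were compared in windows of 100 bases. Python 3.11.15, pandas 2.3.3, numpy 2.4.6, biopython 1.88 and matplotlib 3.10.9 were used; the steps were tested on simulated data. With 1 group, no test was run. Depth is unknown, and 3 libraries limit the precision.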

Additional observations from a re-analysis of the deposited data

How the results depend on the processing

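With last exons only, the summed P450 level was 4364 FPKM in place of 8448, 8 genes were over 2-fold in place of 13, and the 5 highest held 48.1% in place of 50.8%. With the largest internal event only, the sum was 2458 FPKM, 16 genes reached 1 FPKM in place of 41, 5 were over 2-fold and the 5 highest held 73.2%. With the identifier in the tables only, the sum was 6095 FPKM, 7 genes were over 2-fold and the 5 highest held 52.5%. These 3 settings use fewer events. Leaving out 1 library at a time gave sums from 8140.1 to 8996 FPKM, 39 to 40 genes at 1 FPKM, 4 to 10 genes over 2-fold, with 4 without library 2, and shares of the 5 highest from 50.8 to 51.6%.

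First exons only, events under 0.1 FPKM left out, repeated rows kept and scaling to the same median left the sum, both counts and the share within the spread between libraries or within 1.5 times. Pseudocounts of 0.1 and 0.01 gave 14 genes over 2-fold, and a minimum of 5 FPKM gave 10. Counting last exons of loci with several genes too, chosen after seeing the data, gave 8738 FPKM and 12 genes, without Cyp3a41a, whose level was then 496 FPKM in place of 207. Of the levels of 44 genes named by rule, 4 of them at 0 throughout, 24 moved by more than their SD with internal events only, 14 with last exons only and 12 with the identifier only.

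No paired analysis was possible because all libraries belong to 1 group. Unknown depth limits what can be said of genes near 1 FPKM, and near-identical copies limit the separate values of Cyp3a41a, Cyp3a41b, Cyp2c40, Cyp2c69, Cyp2c67, Cyp2c68, Cyp2d10, Cyp2a4 and Cyp2a5.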
